A study of Mus musculus with 12 samples.

Results

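A set of 10 genes commonly used to mark tissue macrophages was followed in the colon of 2-week-old mice: C1qa, C1qb, C1qc, Csf1r, Cx3cr1, Mrc1, Adgre1, Cd68, Cd14 and Apoe. They were chosen by name as macrophage genes, and all 10 were found among the 35688 genes of the table and were among the 13561 genes tested. All animals lacked Il10, the gene of an anti-inflammatory cytokine, a setting in which mice develop colitis. Libraries of 5 Il10-/- mice were set against those of 6 Il10-/- Tnfr1-/- mice, whose second deletion removes TNF receptor 1 (gene Tnfrsf1a). RNA was taken from the whole thickness of the colon, and the labels give neither sex nor litter. No wild-type colon was part of the series, so every level below is relative to the other genotype.

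The gut wall is rich in macrophages. In adult animals it is refilled by blood monocytes that settle in the mucosa, take up CSF1 through the receptor CSF1R, acquire the fractalkine receptor CX3CR1 and mature into cells that clear dying cells and bacteria. Interleukin 10 is a main brake on these cells, and its loss leaves them reactive to bacterial products. The C1Q chains form the recognition unit of the classical complement pathway and are made largely by macrophages, MRC1 (CD206) and ADGRE1 (F4/80) are surface proteins of mature macrophages, CD68 lies in their lysosomes, CD14 is a coreceptor for endotoxin that monocytes and neutrophils also carry, and APOE is a lipid carrier that glia, smooth muscle and other cells make as well.

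The values are transcript abundances as deposited, per transcript length and scaled between libraries, summed here by gene, so levels of different genes can be set side by side. They are not counts, and the depth of each library is unknown. A library summed to between 804109 and 1378971, with 41.7% to 55.1% of transcripts at 0. Tnfrsf1a checked the labels: its level was 47.9 ± 18.5 (SD, n = 5) in Il10-/- libraries against 14.8 ± 2.34 (SD, n = 6) in the other genotype, with no overlap. Il10, deleted in both groups, still gave 15.3 ± 6.44 and 5.14 ± 1.56, and no label says which part of the gene is missing. Its values did not overlap either, at 9.06 to 22.9 in Il10-/- and 3.27 to 7.23 in Il10-/- Tnfr1-/- libraries. The log2 fold change of Il10 was -1.44 (exact permutation p = 0.00216 before and 0.554 after adjustment over all genes). The cause of that difference was not tested. The numbers in the samples' titles start with 1, 2, 3 or 4, a digit whose meaning the labels do not give. A leading 1 belongs to 3 Il10-/- and 2 Il10-/- Tnfr1-/- mice, a leading 4 to 2 Il10-/- mice, and a leading 2 or 3 to 2 Il10-/- Tnfr1-/- mice each. Outside the titles that start with 1, the digit and the genotype cannot be told apart.

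The upstream sequence of 4 of these genes is shown because the C1q genes and Cx3cr1 varied together between libraries. The Cd68 level, summed over coding and noncoding transcripts, did not vary with them, as described below. The 250 bases before the start site are from RefSeq on GRCm38.p6 (the build also called mm10), 5′ to 3′ on the gene's strand, with capitals on each match to GAGGAA or its reverse complement TTCCTC. These letters are the core bound by PU.1, the transcription factor that sets up the macrophage lineage (gene Spi1).
C1qb, chr4:136886201-136886450, minus strand: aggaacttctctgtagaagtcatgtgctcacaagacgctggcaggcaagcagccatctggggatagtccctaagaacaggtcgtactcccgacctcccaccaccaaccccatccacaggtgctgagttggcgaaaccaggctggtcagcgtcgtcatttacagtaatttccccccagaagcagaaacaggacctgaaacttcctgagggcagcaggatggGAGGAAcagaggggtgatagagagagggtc
C1qc, chr4:136892915-136893164, minus strand: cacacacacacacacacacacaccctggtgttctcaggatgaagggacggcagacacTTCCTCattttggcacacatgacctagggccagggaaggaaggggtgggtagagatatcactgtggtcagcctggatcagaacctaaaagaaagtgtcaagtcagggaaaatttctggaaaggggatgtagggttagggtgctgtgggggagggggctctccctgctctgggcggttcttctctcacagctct
Cx3cr1, chr9:120068297-120068546, minus strand: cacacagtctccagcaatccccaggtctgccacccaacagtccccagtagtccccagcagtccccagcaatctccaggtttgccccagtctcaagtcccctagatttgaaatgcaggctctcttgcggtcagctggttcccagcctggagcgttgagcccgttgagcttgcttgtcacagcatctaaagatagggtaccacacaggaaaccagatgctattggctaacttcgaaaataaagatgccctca
Cd68, chr11:69666171-69666420, minus strand: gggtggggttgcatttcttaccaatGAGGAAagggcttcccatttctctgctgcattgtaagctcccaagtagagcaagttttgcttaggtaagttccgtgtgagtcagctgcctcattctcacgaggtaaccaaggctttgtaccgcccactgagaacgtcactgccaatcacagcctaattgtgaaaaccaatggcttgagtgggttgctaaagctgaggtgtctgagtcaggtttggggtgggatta
C1qb had a match at position -30 from the start site, C1qc at -193 and Cd68 at -225, while the Cx3cr1 window held none on either strand. The promoter table held 8 windows of 6 of the genes, and 6 of the 8 held a match, against 7639 of all 32851 windows of that length (23.3%). Mrc1 had 3 matches, at -180, -167 and -35, and 2 of the 3 windows of Apoe had 1 each. A binding motif of the MAF factors, TGCTGA or its reverse complement TCAGCA, was present in C1qb at -131 and in none of the other member windows, against 16.1% of all windows. C1qa, Csf1r, Adgre1 and Cd14 were not among the entries used here. A match is a run of letters and not a measured binding site, and Cx3cr1, with no match, varied with C1qb and C1qc, which had one.

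C1q, the complement component, gave a level of the same order from each of its 3 chains, and all 3 had a higher mean in Il10-/- Tnfr1-/- colons without passing the test over all genes. The 3 genes lie next to each other on the minus strand of chromosome 4 (mm10, GENCODE release M21): C1qb from 136880129 to 136886187, C1qc from 136889804 to 136893065 and C1qa from 136895917 to 136898803. C1qa was at 18.1, 11.2, 14, 13 and 12.8 in Il10-/- replicates 1, 2, 3, 5 and 6, and in Il10-/- Tnfr1-/- libraries it ran from 13.1 through a median of 17.7 to 32.4. Of the 5 Il10-/- values, 4 lay below the median of the other genotype, and the groups overlapped. The mean was 13.8 ± 2.59 (SD, n = 5) against 20.6 ± 7.88 (SD, n = 6), a log2 fold change of 0.50 ± 0.24 (SE), with an exact permutation p of 0.0758.

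C1qb was at 17.5, 10.3, 13.7, 14.8 and 8.77 in Il10-/- libraries and between 11.8 and 29.4, with a median of 18.1, in Il10-/- Tnfr1-/- libraries. Its log2 fold change was 0.47 ± 0.25 (SE; exact permutation p = 0.115). C1qc was at 14.7, 10.9, 14, 8.94 and 5.77 in Il10-/- libraries and between 11.3 and 26.9, with a median of 15.5, in Il10-/- Tnfr1-/- libraries. For both chains the lowest library was Il10-/- replicate 6 and the highest was Il10-/- Tnfr1-/- replicate 3. The log2 fold change of C1qc was 0.61 ± 0.27 (SE; exact permutation p = 0.0606). In limma with Benjamini-Hochberg adjustment over all 13561 genes, each chain had an adjusted p of 0.536. In whole tissue, fewer cells of a type and less RNA per cell cannot be told apart, here and in every comparison below.

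The ratios between the 3 chains varied less between libraries than the level of C1qa did. C1qb was at 0.686 to 1.14 times C1qa over the 11 libraries, a coefficient of variation of 14.1%, and C1qc at 0.452 to 1.00 times C1qa (19.4%). The lowest of both ratios were in Il10-/- replicate 6. By comparison the level of C1qa itself had a coefficient of variation of 38.8% over the same libraries. This was not particular to the chains. Ratios to the mean of the 3 chains had coefficients of variation of 21.6% for Csf1r, 24.6% for Mrc1, 24.6% for Adgre1 and 25.1% for Cx3cr1.

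The receptor genes that mark mature macrophages were lower in level than C1q and differed little between the genotypes. Csf1r, the receptor for CSF1 and IL-34 that macrophages need to survive, was at 4.01, 4.0, 6.25, 3.61 and 2.99 in Il10-/- libraries, and in Il10-/- Tnfr1-/- libraries it ran from 2.95 through a median of 5.33 to 11.1. Cx3cr1, the fractalkine receptor that marks mature gut macrophages, was at 2.63, 2.76, 2.12, 1.87 and 1.43 in Il10-/- libraries and between 1.71 and 5.96, with a median of 2.28, in the other genotype. In both genes 1 library, Il10-/- Tnfr1-/- replicate 3, stood well above the rest and the other libraries overlapped. The log2 fold changes were 0.31 ± 0.30 (SE) for Csf1r and 0.25 ± 0.29 (SE) for Cx3cr1, and 0.10 and 0.04 without that library.

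Mrc1, the mannose receptor, was at 4.94, 3.19, 3.59, 1.88 and 1.66 in Il10-/- libraries and between 2.30 and 5.33, with a median of 3.88, in Il10-/- Tnfr1-/- libraries. Adgre1, the F4/80 antigen, was the lowest of the 10 genes, at 2.05, 1.53, 1.34, 1.21 and 0.652 in Il10-/- libraries and between 1.1 and 3.16, with a median of 1.32, in the other genotype. Il10-/- replicates 5 and 6 had the 2 lowest Mrc1 values and replicate 6 the lowest Adgre1 value, and the genotypes overlapped over most of their range. The log2 fold change was 0.34 ± 0.30 (SE) for Mrc1 and 0.19 ± 0.28 (SE) for Adgre1, the latter 0.02 without Il10-/- Tnfr1-/- replicate 3 and 0.03 without Il10-/- replicate 6.

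Cd68, the lysosomal glycoprotein, was at 9.32 ± 2.67 (SD, n = 5) and 10.1 ± 2.20 (SD, n = 6), nearer in level to the C1q chains than to the receptors. It was at 4.93, 8.96, 11.5, 11.3 and 9.88 in Il10-/- libraries and between 7.24 and 13.4, with a median of 10.03, in Il10-/- Tnfr1-/- libraries. Its coefficient of variation, 23.9%, was the smallest of the 10 genes. The library with the highest Csf1r, Il10-/- Tnfr1-/- replicate 3, had 8.82 of Cd68, below the mean of either genotype. The log2 fold change was 0.14 ± 0.23 (SE) and, without Il10-/- replicate 1, the lowest library, -0.06. The Cd68 level sums coding and noncoding transcripts, whose values are given further below.

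**Figure D1:**
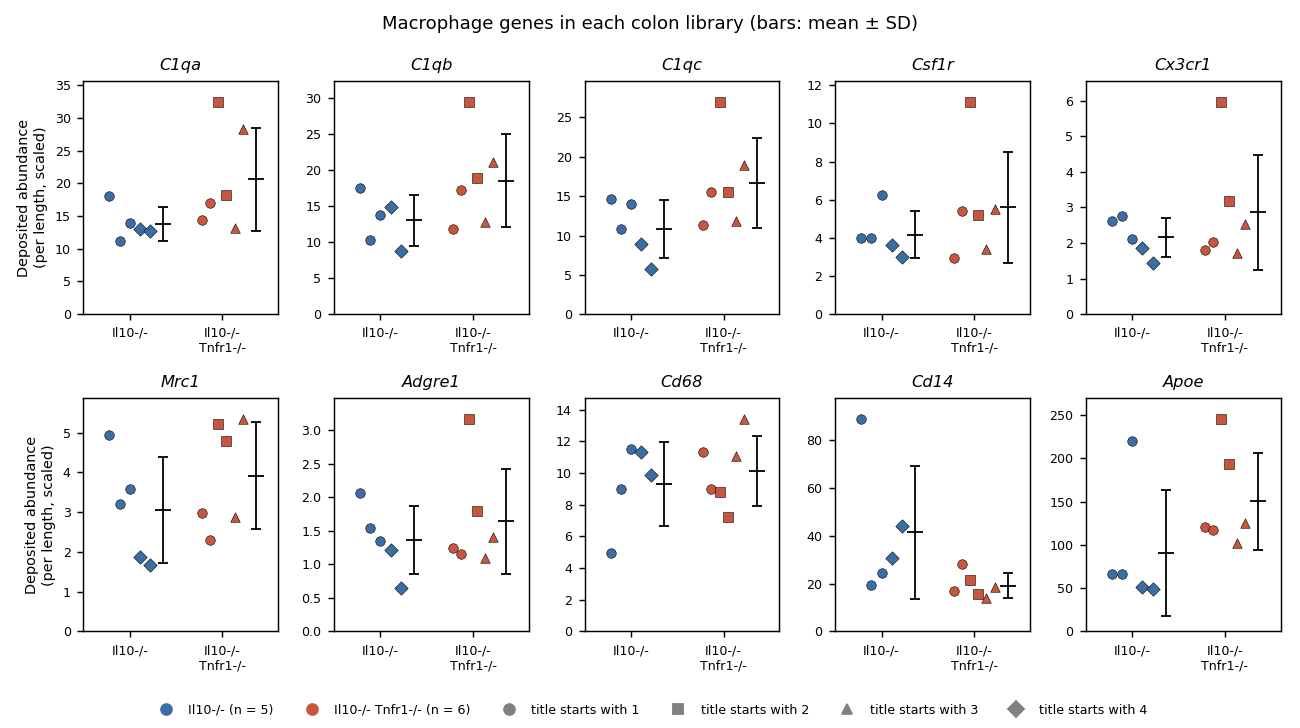
Deposited abundance (per length, scaled between libraries) of the 10 genes in each library, Il10-/- in blue and Il10-/- Tnfr1-/- in red, with marker shapes for the first digit of the title and bars for mean ± SD. The genotypes overlap in every panel; Cd14 is the only gene with the lower mean in Il10-/- Tnfr1-/- libraries (19.1 against 41.4), and Il10-/- Tnfr1-/- replicate 3 (the upper square in most panels) is the highest library for 7 of the 10 genes.

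Cd14, the endotoxin coreceptor, went the other way. It was at 88.7, 19.5, 24.3, 30.7 and 43.9 in Il10-/- replicates 1, 2, 3, 5 and 6, and ran from 13.95 through a median of 17.7 to 28.3 in Il10-/- Tnfr1-/- libraries. Of the 5 Il10-/- values, 3 lay above the whole Il10-/- Tnfr1-/- range and the other 2 lay inside it. The mean was 41.4 ± 28 (SD, n = 5) against 19.1 ± 5.17 (SD, n = 6), or 0.46 times the Il10-/- mean, and the log2 fold change was -0.92 ± 0.34 (SE). The exact permutation p was 0.0238, which became 0.576 after Benjamini-Hochberg adjustment over all genes, and limma gave an adjusted p of 0.536. The difference depended in size on Il10-/- replicate 1: it was -0.60 without that library.

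Set against C1q in the same library, Cd14 was higher in every Il10-/- library, by a small gap. The ratio of Cd14 to the mean of the 3 C1q chains was 5.29, 1.81, 1.75, 2.50 and 4.82 in Il10-/- libraries and between 0.720 and 1.70 in Il10-/- Tnfr1-/- libraries, with no overlap. The ratio was formed after the values of both genes had been seen, so it is given without a test, and the nearest values of the genotypes, 1.75 and 1.70, almost met.

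Apoe was the most abundant of the 10 genes. It was at 66.2, 65.8, 219.5, 51.6 and 49.3 in Il10-/- libraries, and from 102.3 through a median of 123.1 to 244.9 in Il10-/- Tnfr1-/- libraries. Of the 5 Il10-/- libraries, 4 lay below every Il10-/- Tnfr1-/- library, and the other, replicate 3, was the second highest of all 11. The mean was 90.5 ± 72.6 (SD, n = 5) against 150.6 ± 56.1 (SD, n = 6), with a log2 fold change of 0.92 ± 0.37 (SE) and an exact permutation p of 0.0628. Without Il10-/- replicate 3 the log2 fold change was 1.30, and limma with Benjamini-Hochberg adjustment still called no member, since the smallest adjusted p of any member under any alternative was 0.246.

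Counted together, 9 of the 10 genes had a higher mean log2 value in Il10-/- Tnfr1-/- colons and 1 had a lower one, beside 55.5% of all tested genes that were higher. The median log2 fold change was 0.32 over the 10 genes and 0.05 over all genes. None of the 10 passed the adjusted threshold of 0.05 in limma, where the background was 0 of 13561 genes (0%), and 0 genes passed the exact permutation test after adjustment. At an unadjusted p under 0.05, limma gave 3 of the 10 (C1qc and Apoe higher, Cd14 lower), where the background was 8.34% of all genes, 4.74% higher and 3.6% lower. The exact permutation test without adjustment gave 1 of the 10, Cd14, against 8.47% of all genes. No member separated the genotypes without overlap, which 0.575% of all genes did. With 5 animals against 6, the exact test of 1 gene can go down to 0.00216 before adjustment. Tnfrsf1a, the gene deleted in 1 of the genotypes, reached that value and was not called. Its adjusted p was 0.554 in the exact permutation test and 0.125 in limma. A gene that was not called may therefore still differ between the genotypes.

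The direction of the receptor genes depended on the libraries and on what was held constant. Among titles that start with 1 (3 animals against 2, with 0.1 as the smallest exact p), the log2 fold changes were -0.19 for Csf1r, -0.32 for Cx3cr1, -0.48 for Mrc1 and -0.32 for Adgre1, while those of the C1q chains shrank to between 0.02 and 0.14. Cd14 kept a lower mean there (-0.66, exact permutation p = 0.8). With the mean centred log2 level of the smooth muscle genes as a covariate, Apoe went from 0.92 to 0.21, C1qc from 0.61 to 0.30, and the 4 receptor genes all had a lower mean, by at most 0.14 (Adgre1, -0.14). Under either of those fits 5 of the 10 genes were higher and 5 lower. Cd14 was lower in all 23 alternatives run, and C1qa, C1qb, C1qc and Apoe were higher in all 23. These alternatives share libraries and are not independent of each other.

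**Figure D2:**
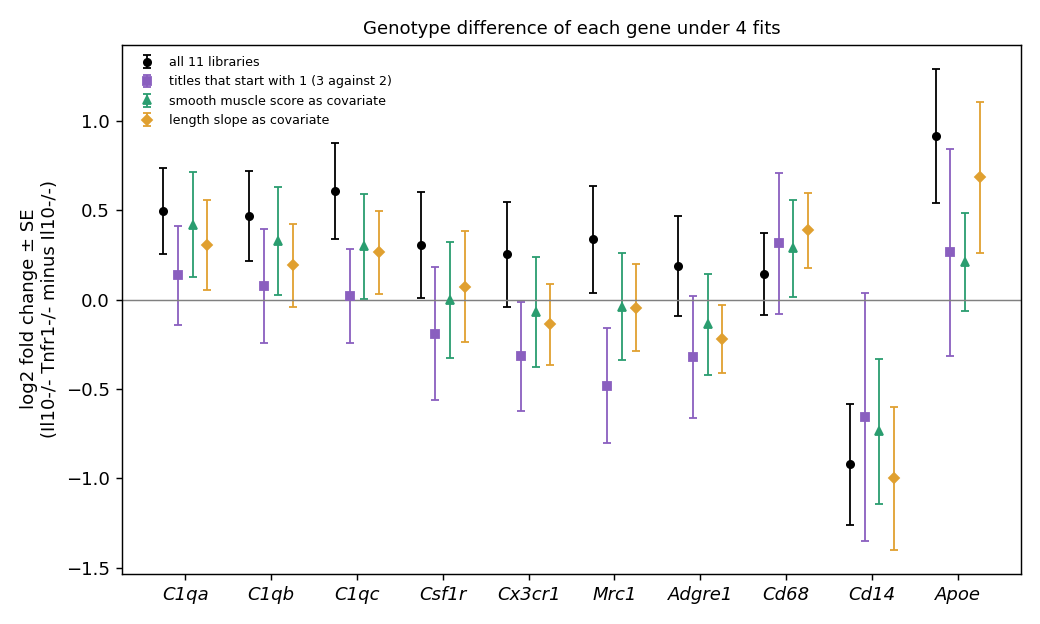
Log2 fold change ± SE (Il10-/- Tnfr1-/- minus Il10-/-) of each gene in 4 limma fits: all 11 libraries, only titles that start with 1 (3 against 2), with the smooth muscle score and with the length slope as a covariate. Cd14 lies below 0 and the C1q chains and Apoe lie at or above it in all 4, while Cx3cr1, Mrc1 and Adgre1 lie above 0 with all libraries (0.25, 0.34 and 0.19) and below 0 in the other 3.

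The genes were then compared with each other across the 11 libraries, as correlations of log2(abundance + 0.5) over 45 pairs, with permutation tests of 100000 resamples and Benjamini-Hochberg adjustment over the 45. The C1q chains and the 4 receptor genes formed 1 block. All 21 pairs among them were positive, with Pearson's r from 0.60 to 0.94 (median 0.80), and 19 of the 21 passed for r and 11 for both r and Spearman's rho. The C1q genes themselves correlated at 0.84 to 0.91: for C1qa and C1qb, r was 0.91 (permutation p = 8e-05, adjusted 0.0018) and rho 0.91 (permutation p = 0.0003, adjusted 0.0045), and r was 0.84 without the 2 libraries farthest from the median of C1qa. The closest pair was Cx3cr1 and Adgre1, with r = 0.94 (permutation p = 5e-05, adjusted 0.0018), rho = 0.94 and r = 0.88 without the 2 farthest libraries. These pairs held within genotype: with each value centred on its genotype's mean, r was 0.87 for C1qa and C1qb and 0.94 for Cx3cr1 and Adgre1.

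Links between C1q and the receptors leaned on the extreme libraries. Their 12 pairs had a median r of 0.79 over all libraries and 0.48 without the 2 farthest, with a range of 0.33 to 0.73. C1qc and Csf1r went from 0.85 to 0.71, and C1qb and Adgre1 from 0.79 to 0.33. Beside them, the median r over all pairs of tested genes was 0.03, and 3.59% of those pairs reached the median of the 12. Among titles that start with 1 there are 5 libraries, too few for a correlation within that digit.

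Cd68, as summed over its transcripts, and Cd14 stood outside the block. A noncoding transcript carried 15.2% to 55.2% of the Cd68 sum, and correlations of the coding transcript alone were not run. The 9 pairs that hold Cd68 had r between -0.60 and 0.10, the 9 that hold Cd14 between -0.60 and -0.01, and none passed the adjusted threshold. With each value centred on its genotype the pairs of Cd68 lay between -0.62 and -0.02, but those of Cd14 ran from -0.62 to 0.44, with 0.44 for C1qa and 0.38 for C1qb. Without the 2 farthest libraries Cd14 and Adgre1 went from -0.01 to 0.52. Apoe lay between: its r was 0.77 with C1qc (permutation p = 0.00398, adjusted 0.0131; rho = 0.78; 0.58 without the 2 farthest libraries) and 0.76 with Csf1r (0.57 without the 2 farthest), 0.10 with Cd68 and -0.52 with Cd14. Il10-/- Tnfr1-/- replicate 3 was the highest library for 7 of the 10 genes (C1qa, C1qb, C1qc, Csf1r, Cx3cr1, Adgre1 and Apoe), while 16.1% of all tested genes were highest there. Il10-/- replicate 6 was the lowest for 6 of the 10, and for 23.6% of all tested genes. These 2 libraries were also extremes of the whole table: Il10-/- replicate 6 had the largest sum of abundances (1378971) and the most transcripts at 0 (55.1%), and Il10-/- Tnfr1-/- replicate 3 the smallest sum (804109). The log2 sum of the library ran against Adgre1 (r = -0.84, permutation p = 0.00248; rho = -0.75; -0.56 without the 2 farthest libraries), C1qc (r = -0.79; -0.25 without them), Cx3cr1 (r = -0.77) and Mrc1 (r = -0.70), which passed for r after adjustment over 150 relations. The percentage of transcripts at 0 ran against the same 4 genes, with r of -0.86 for Adgre1 (-0.83 without the 2 farthest libraries), -0.80 for Mrc1, -0.77 for Cx3cr1 and -0.72 for C1qc. The part of these library properties in the block was not tested.

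**Figure D3:**
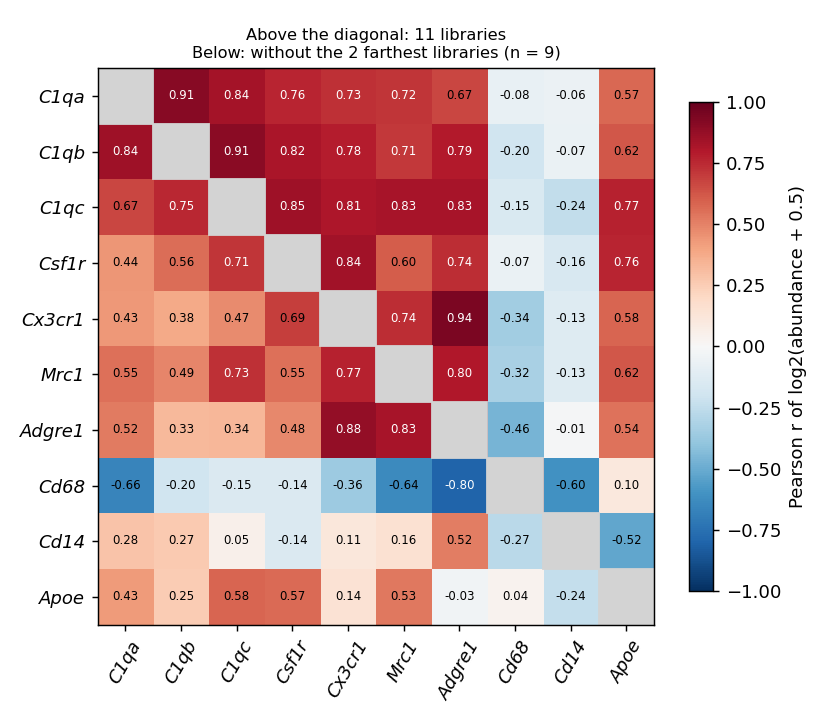
Pearson's r between log2(abundance + 0.5) of each pair of the 10 genes, over 11 libraries above the diagonal and without the 2 libraries farthest from the median of the column's gene (n = 9) below it. The C1q and receptor genes form a red block of positive r (0.60 to 0.94), which is paler below the diagonal (0.33 to 0.88), and the cells of Cd68 and Cd14 are pale or blue above the diagonal.

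Of 27 other macrophage genes listed, 19 were tested, of which 15 had a higher and 4 a lower mean log2 value in Il10-/- Tnfr1-/- libraries, a median log2 fold change of 0.28, and none was called. Tgfbr2, the receptor for TGF-beta, was at 8.22 ± 3.87 (SD, n = 5) and 13.7 ± 6.89 (SD, n = 6), and the lysozyme gene Lyz2 at 17.6 ± 11 and 47.4 ± 44.5. The mean log2 level of the 19 tracked C1qc (r = 0.92, permutation p = 0.00021, adjusted 0.0063 over 150 relations of the 10 genes with library measures; rho = 0.87; 0.81 without the 2 farthest libraries) and Csf1r (r = 0.92; 0.79 without the 2 farthest), but not Cd14 (r = -0.09) or Cd68 (r = -0.28). Single genes of the list differed: 11 of the 19 had an r over 0.5 with the mean of the C1q chains. For Mertk, Folr2, Cd63, Gas6 and Stab1 that r lay between -0.16 and -0.08. Some genes that mark long-lived resident macrophages were near 0 in level and others were not. Vsig4 was at 0 in all 11 libraries, and Cd163 (0.104 and 0.318) and Timd4 (0.136 and 0.475) had mean abundances too low to test. Stab1, a scavenger receptor gene, was at 38.9 ± 31.1 (SD, n = 5) and 27.1 ± 6.70 (SD, n = 6), Pf4 at 10.7 ± 3.85 and 11.95 ± 4.47, Lyve1 at 1.93 ± 2.20 and 3.99 ± 3.64, and Folr2 at 1.16 ± 0.340 and 1.14 ± 0.569. The 10 genes do not by themselves tell long-lived macrophages from recently arrived ones.

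Among the transcription factors of the lineage, 4 of the 8 tested were higher and 4 lower. Maf had 2.23 ± 0.936 (SD, n = 5) in Il10-/- libraries against 3.97 ± 0.949 (SD, n = 6) in the other genotype (log2 fold change 0.74 ± 0.24, SE; exact permutation p = 0.0173 before adjustment). Spi1, which encodes PU.1, was at 1.98 ± 1.43 and 3.93 ± 2.98. In limma with Benjamini-Hochberg adjustment their adjusted p values were 0.536 and 0.547. Across the 11 libraries the r with the mean of the C1q chains was 0.82 for Spi1 and 0.45 for Maf, given as a description.

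The ligands and partners of the 10 gene products did not share a direction. The growth factor list held Csf1, Il34 and the CSF2 receptor genes Csf2ra and Csf2rb, and 3 of these 4 were tested. Il34, the second ligand of CSF1R, was at 10.7 ± 5.10 (SD, n = 5) and 4.68 ± 2.57 (SD, n = 6). Its log2 fold change was -1.14 ± 0.44 (SE, exact permutation p = 0.0519). Csf1 was at 3.60 ± 1.11 and 3.70 ± 1.90, and the log2 fold changes of Csf1 and Csf2ra were only -0.03 and -0.01. For CX3CR1, the ligand gene Cx3cl1 was at 25.8 ± 3.67 and 27.2 ± 6.41 and the monocyte chemokine gene Ccl12 at 1.28 ± 0.333 and 1.83 ± 0.573, the 2 tested of 6 listed. Of the classical complement genes that act with C1q, 6 of 8 tested were higher and none was called. Serping1, the C1 inhibitor, was at 12.1 ± 4.99 and 20.8 ± 12.7, and the protease gene C1s1 at 6.80 ± 2.61 and 10.9 ± 7.32.

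Partners of CD14 in endotoxin sensing were lower in 4 of 5 tested genes, with a median log2 fold change of -0.06. Lbp, which hands endotoxin to CD14, was at 28.8 ± 47.7 (SD, n = 5) in Il10-/- libraries and 2.77 ± 1.63 (SD, n = 6) in the other genotype, and its highest value, 113, was in Il10-/- replicate 1, the library with the highest Cd14. The adaptor gene Myd88 was at 22.7 ± 6.86 and 18.0 ± 1.20. Of the receptors and lipid exporters that work with APOE, 3 of 9 tested were higher and 6 lower: the cholesterol exporter gene Abca1 was at 0.731 ± 0.279 and 1.31 ± 0.542, and its regulator Nr1h3 (LXR alpha) at 11.1 ± 3.88 and 8.19 ± 3.07. None of these genes was called in limma after adjustment over all genes.

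Markers of other cells varied with several of the 10 genes. Of 80 relations with scores of other cell types, 14 passed the threshold for r after adjustment over all 150, and 6 of the 14 were with the lymphatic endothelial score. Only 1 of the 150, Cd14 with the neutrophil score, passed for rho as well. That score, the mean log2 level of the 5 tested neutrophil genes of 13 listed, followed Cd14 with r = 0.90 (permutation p = 0.00015, adjusted 0.0063) and rho = 0.93 (adjusted 0.0165), 0.84 without the 2 farthest libraries and 0.83 with each value centred on its genotype. The score ran from -0.40 to 2.71 in Il10-/- libraries and from -2.01 to 0.63 in the other genotype, and the 13 listed genes summed to 36 to 542.3 and 7.98 to 100.8. S100a8 was at 53.7 ± 68.1 (SD, n = 5) and 3.88 ± 6.08 (SD, n = 6), and Ly6g at 167.2 ± 163.3 and 23.4 ± 27.0. Among the listed granule genes, Elane was at 0 in all 11 libraries, and Mpo (0.015 and 0.018), Mmp8 (0.011 and 0.010) and Ngp (0.018 and 0.023) had means near 0. The granule gene Ltf was at 11.6 ± 13.5 (SD, n = 5) and 2.34 ± 0.751 (SD, n = 6), and Mmp9 at 1.30 ± 1.05 and 1.99 ± 1.81. Of the 5 tested genes in the score, 4 had a lower and 1 a higher mean log2 value in Il10-/- Tnfr1-/- libraries. Whole tissue does not show which cells carried these genes, and the part of neutrophil RNA in the Cd14 difference was not tested.

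Apoe followed the smooth muscle score (r = 0.89, permutation p = 0.00035, adjusted 0.00675; rho = 0.81; 0.82 without the 2 farthest libraries; 0.84 centred on genotype) and the score of enteric glia and neurons (r = 0.89; 0.87 without the 2 farthest). All 10 smooth muscle genes had a higher mean log2 value in Il10-/- Tnfr1-/- libraries, 9 of them at an unadjusted limma p under 0.05 and none after adjustment. Their sum ran from 184.4 to 3505 in Il10-/- and from 827.7 to 8010 in Il10-/- Tnfr1-/- libraries. Il10-/- replicate 3, the one Il10-/- library with high Apoe, also had the highest smooth muscle score of its genotype, 1.31, while the other 4 lay between -2.64 and -0.53. Of the C1q and receptor genes, C1qc followed the score of 3 lymphatic endothelial genes most closely (r = 0.87; rho = 0.75; 0.64 without the 2 farthest libraries), a list that shares Lyve1 with the macrophage genes. How much of each dissected colon was muscle is not given in the labels, and the part of other cell types in the Apoe difference was not tested.

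**Figure D4:**
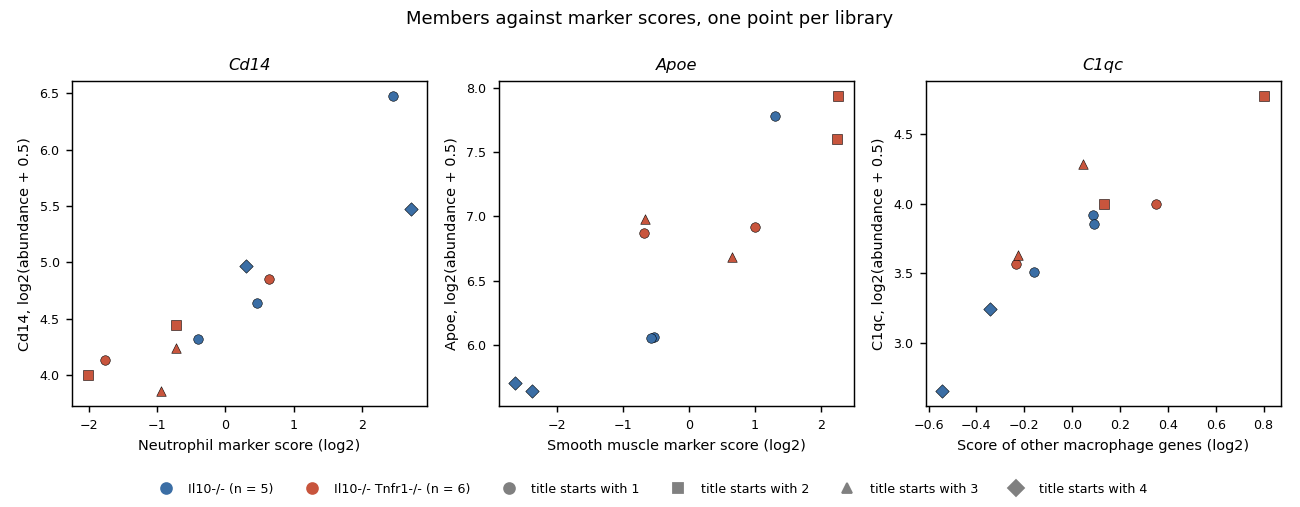
Log2(abundance + 0.5) of Cd14, Apoe and C1qc in each library against the mean centred log2 level of neutrophil markers, smooth muscle markers and other macrophage genes, with genotype as colour and the first digit of the title as marker shape. Each gene climbs with its score (r = 0.90, 0.89 and 0.92), and Il10-/- replicate 3 is the blue point at the upper right of the Apoe panel.

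The libraries differed in which transcript carried the signal of several of the genes. Of the abundance of Cd68, a processed transcript of 612 bases with no coding sequence carried 15.2% to 55.2%, the largest shares being in Il10-/- replicates 3 (55.2%) and 5 (53.3%). The coding Cd68 transcript of 1230 bases was at 4.01, 5.14, 5.15, 5.28 and 5.34 in Il10-/- libraries. In Il10-/- Tnfr1-/- libraries, in order of replicate, it was at 7.80, 7.45, 6.62, 4.82, 6.75 and 8.29. The 612-base transcript was at 0.75, 3.245, 6.35, 6.03 and 4.42 in Il10-/- libraries and between 1.55 and 5.08 in the other genotype. These differences between the genotypes were not tested here. The Adgre1 transcript ENSMUST00000004850.7 carried 0% to 48.2%, with the largest share in Il10-/- replicate 6. Mrc1 was divided between its full-length transcript of 30 exons and 5374 bases, on chromosome 2 from 14229392 to 14332057, and a 2-exon transcript of 2069 bases at the 3′ end of the gene, annotated as a retained intron. The full-length share was 64.6%, 35.1%, 13.2%, 20.1% and 4.79% in Il10-/- libraries, and from 17.1% to 75.5% in Il10-/- Tnfr1-/- libraries. The genotypes overlapped over most of that range, and their means, 27.5% ± 23.5 (SD, n = 5) and 41.8% ± 21.9 (SD, n = 6), differed with an exact permutation p of 0.318.

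For Csf1r the share of the transcript with the shorter 3′ end (3870 bases, against 4701 bases with the same coding length of 2931) was 43.3%, 11.6%, 0%, 3.52% and 0% in Il10-/- libraries and 3.88% to 78.6% in the other genotype. Apoe was carried mainly by 2 coding transcripts. ENSMUST00000173739.7 had 12% to 77.7%, and ENSMUST00000174355.7 had 0% to 80.6% and was the main one in Il10-/- replicates 3 (51.1%), 5 (53.9%) and 6 (80.6%). An Apoe transcript of 456 bases that lacks the 3′ end carried 24.0%, 4.61%, 0%, 0% and 0% in Il10-/- and 0% to 33.3% in Il10-/- Tnfr1-/- libraries. The same 3 libraries had the largest share of the full-length Mrc1 and the short Csf1r transcript: Il10-/- Tnfr1-/- replicates 3 (75.5% and 78.6%) and 4 (59.8% and 45.6%) and Il10-/- replicate 1 (64.6% and 43.3%). Since the Csf1r values fall into these 3 libraries and the rest, no correlation is given for them.

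The full-length Mrc1 share moved with a property of the whole library, the length slope, which is the slope of a library's centred log2 gene levels on log2 gene length. A high slope means that genes with long transcripts are relatively abundant in that library. Their r was 0.90 (permutation p = 6e-05, adjusted 0.0002 over 10 relations), with rho = 0.87, 0.86 without the 2 farthest libraries and 0.90 centred on genotype. The level of Adgre1 followed the slope too (r = 0.90, permutation p = 0.00036, adjusted 0.00675 over 150 relations; rho = 0.82; 0.76 without the 2 farthest libraries), as did Cx3cr1 (r = 0.82) and Mrc1 (r = 0.79). C1qc (r = 0.79) and C1qb (r = 0.72) also passed for r, but fell to 0.30 and 0.27 without the 2 farthest libraries. C1qa (r = 0.60), Csf1r (0.53), Apoe (0.52), Cd68 (-0.45) and Cd14 (-0.22) did not pass. The slope was -0.06 ± 0.13 (SD, n = 5) in Il10-/- libraries and 0.05 ± 0.09 (SD, n = 6) in the other genotype (exact permutation p = 0.134). With the slope as a covariate, the log2 fold changes of Cx3cr1, Mrc1 and Adgre1 were -0.14, -0.04 and -0.22, and that of Cd14 was -1.0. Those of C1qa, C1qb, C1qc and Csf1r shrank from 0.50, 0.47, 0.61 and 0.31 to 0.31, 0.19, 0.27 and 0.07, and that of Cd68 went from 0.14 to 0.39. Whether RNA quality sets the slope was not tested.

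**Figure D5:**
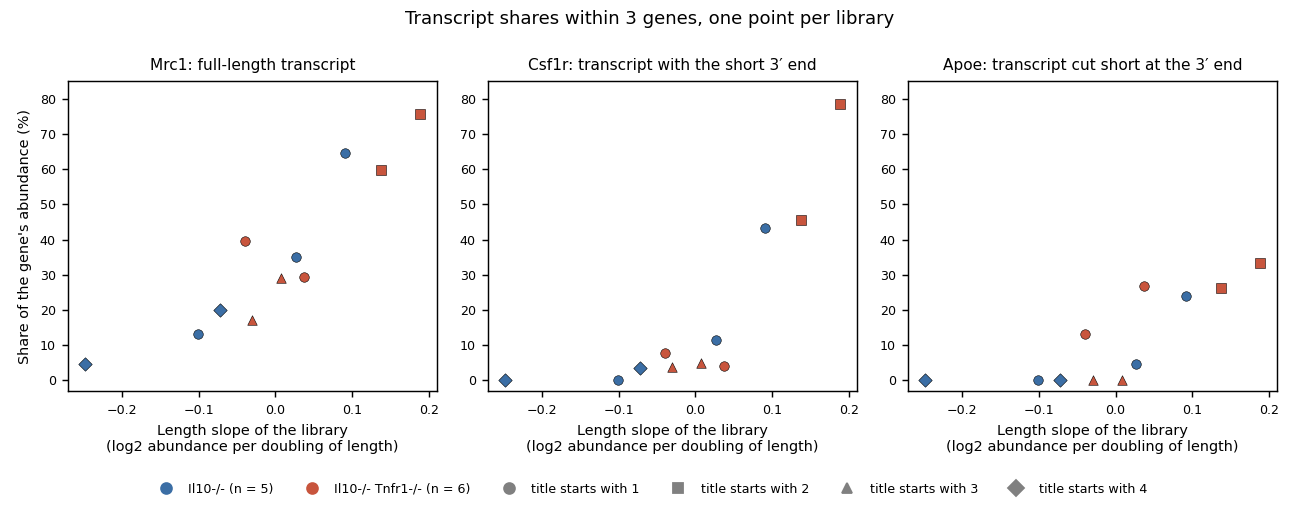
Share of a gene's abundance (%) carried by the full-length Mrc1 transcript, the Csf1r transcript with the short 3′ end and the 456-base Apoe transcript, against the length slope of the library (log2 abundance per doubling of gene length), 1 point per library. The full-length Mrc1 share climbs with the slope from 4.79% to 75.5%, and 3 libraries stand apart in the Csf1r panel at 43.3% to 78.6%.

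Which libraries went into the authors' own comparison is not known. In the authors' deposited table, which tests single transcripts, the single Cd14 transcript had a log2 fold of -1.11 with a p-value of 0.00862 and a q-value of 0.684. In the same authors' deposited table the transcripts of C1qa, C1qb and the main one of C1qc had log2 folds of 0.37, 0.33 and 0.42, all at a q-value of 0.684. For Csf1r the authors' deposited table gave the short and long transcripts log2 folds of 2.38 and -0.20, and for Mrc1 it gave the full-length and the 2-exon transcript 0.76 and -0.09. For Cd68 the authors' deposited table gave 0.42 for the coding transcript of 1230 bases and -0.52 for the noncoding one of 612 bases. No transcript of the 10 genes reached a q-value under 0.05 in the authors' deposited table.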

How the data were processed

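RNA of the full-thickness colon was measured in 12 samples, of which 11 could be matched to a column by title: 5 Il10-/- and 6 Il10-/- Tnfr1-/- libraries. Il10-/- replicate 4 matched no column, and 1 further column of values matched no title; neither was used. CASAVA, kallisto, sleuth and mm10 are named in the submitters' processing notes; no version or setting is given in the sources used here. Deposited abundances are a signal per transcript that the authors scaled: against the authors' mean on a natural log scale, abundance had a slope of 1.08 on log length over 11315 transcripts, so it is taken as per length. The authors' p-value, q-value and log2 fold are quoted only as theirs, per the file headers.

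Here 866 repeated transcript rows were dropped and 113193 transcripts were summed to 35688 genes. Genes over 1 in at least 5 libraries (13561) were tested with limma 3.58.1 (R 4.3.3, trend and robust) on log2(value + 0.5), two-sided, with Benjamini-Hochberg adjustment over all of them at 0.05, and with an exact permutation test over 462 assignments. Fold changes on that scale understate the change of low genes. Replicates are numbered in sample order and not paired, and p-values measure only the spread between these animals. Scores average, over the tested genes of a list, log2 values centred on each gene's mean. Transcript classes and lengths are from GENCODE M21 and promoter sequence from RefSeq. The fits were tested on simulated data.

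The 10 genes and the other lists were chosen with earlier results of these data known. Named besides the 10 genes are Tnfrsf1a and Il10, the 2 tested genes of smallest limma p in each list described, and the 10 genes closest to the C1q chains. Named outside that rule, after their values were seen, are Lyve1, Vsig4, Cd163, Timd4, Stab1, Pf4, Folr2, Mertk, Cd63, Gas6, Csf2ra, Csf2rb, Ltf, Mmp9, Mpo, Elane, Mmp8, Ngp and the untested monocyte genes. Alternatives were other pseudocounts, filters and scalings, limma without trend, the title's first digit, titles that start with 1, a smooth muscle covariate and leaving out each library. The length slope and genotype as covariates were added after seeing the data.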

Additional observations from a re-analysis of the deposited data

Results flagged for a closer look

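Over 30 groups of values checked for a single library far from the rest, 7 held one. The values were not on a log scale and the groups share libraries and genes, so no rate by chance is given. Il10-/- Tnfr1-/- replicate 3 stood apart in 3 receptor genes: Csf1r was at 11.1 there and at 5.50 in the next library of that genotype, Cx3cr1 at 5.96 and 3.17, and Adgre1 at 3.16 and 1.80. Among Il10-/- libraries, replicate 3 stood apart in Apoe, at 219.5 against 66.2 in the next, and in the ratio of Apoe to the mean of the C1q chains, at 15.8 against 6.10. Il10-/- replicate 1 stood apart in the share of the Csf1r transcript with the short 3′ end, at 43.3% against 11.6% in the next Il10-/- library. It also stood apart in the share of the 456-base Apoe transcript, at 24.0% against 4.61%.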

How the results depend on the processing

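Over 23 alternatives for each of the 10 genes, 17 of 230 log2 fold changes changed sign and no gene passed the adjusted threshold. With the title's first digit as a covariate, or among titles that start with 1, the values were -0.19 for Csf1r, -0.32 for Cx3cr1, -0.48 for Mrc1 and -0.32 for Adgre1. Both fits give the same log2 fold changes by construction, since each other digit holds a single genotype. Those sign changes are therefore counted in both. Adding the smooth muscle score gave -0.0018 for Csf1r, -0.0699 for Cx3cr1, -0.0382 for Mrc1 and -0.14 for Adgre1. With the length slope as a covariate, Cx3cr1 was at -0.14, Mrc1 at -0.0443 and Adgre1 at -0.22; with quantile normalization, Adgre1 was at -0.10; leaving out single libraries, Cd68 lay between -0.0562 (without Il10-/- replicate 1) and 0.2305. The cause was not tested. The number of the 10 genes at an unadjusted p under 0.05 was 3 in the fit reported, 0 with the first digit as a covariate, 0 among titles that start with 1, 0 with the smooth muscle score, 1 with the length slope, and between 1 and 5 when single libraries were left out. It was 1 without Il10-/- replicate 2, 5 or 6 or Il10-/- Tnfr1-/- replicate 3 or 4, and 5 without Il10-/- Tnfr1-/- replicate 1. Over all genes that count was 1131, against 243, 149, 616 and 731 in those fits and between 474 and 2450 with single libraries left out. Genes called after adjustment numbered 0, 1 with quantile normalization and between 0 and 2 with single libraries left out. An equal total per library moved the all-gene median of the log2 fold change from 0.05 to 0.19, with 75.2% of 922 genes at an unadjusted p under 0.05 higher, against 56.9%; median-ratio size factors gave -0.01 and 40.3% of 1212, and quantile normalization gave -0.02 and 41.3% of 1311. In these 3 scalings the median over the 10 genes was 0.44, 0.26 and 0.13, with 9, 9 and 8 of them higher. The filter at 6 libraries tested 13293 genes, and no filter 26147, of which 1598 had an unadjusted p under 0.05. The median r over the 45 pairs was 0.62 and stayed between 0.38 and 0.75 over 20 alternatives; the median over the 3 C1q pairs was 0.91, and 0.79 with the length slope as a covariate. Correlations among titles that start with 1 were not run, since 5 libraries are too few. No paired analysis was possible because the labels give no replicate numbers. Depth is unknown, so no value carries a counting error, and genes near an abundance of 1 are the least certain.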

Other observations

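The genes closest to the C1q chains across the 11 libraries were read out as a description, since the closest of 13551 genes are close by selection. Dhx40, an RNA helicase gene, had the highest r with the mean centred log2 level of the 3 chains, 0.94, with abundances between 5.76 and 9.82. It was followed by Tgfb1, the gene of a cytokine that shapes gut macrophages, with an r of 0.91 and abundances between 2.49 and 12.8. Clec4n (r = 0.91), which encodes the fungal receptor dectin-2, Pla2g7 (0.91), a secreted lipase gene of macrophages, and Fcgr3 (0.90), an IgG receptor gene, came next. H2-M3, a nonclassical MHC gene, had an r of 0.90, as did Ankrd44 and Cfap43. Brox and Klf13 had 0.89. With each value centred on its genotype, the r of these 10 genes lay between 0.84 and 0.91. Of all tested genes outside the 10, 24.7% had an r over 0.5 with the C1q chains. The share was 57.9% of the 19 other macrophage genes tested, 80% of the 10 smooth muscle genes and 0% of the 10 epithelial genes. It was 83.3% of 6 blood endothelial, 100% of 3 lymphatic endothelial, 62.5% of 8 fibroblast and 60% of 5 T cell genes. For 8 enteric glia and neuron genes it was 0%, and for 5 neutrophil genes 20%. An r over 0.5 was thus not particular to macrophage genes.

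Plac8, listed as a monocyte marker, was one of the most abundant genes named here and was at 1566 ± 1095 (SD, n = 5) in Il10-/- libraries and 649.1 ± 539.2 (SD, n = 6) in the other genotype, with no call after adjustment in limma. The monocyte genes Ly6c2, Chil3, F13a1 and Ms4a4c were too low to be tested.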
